A study of Arabidopsis thaliana with 24 samples.

Results

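Of the 22746 ATH1 probe sets analysed, 38 were named by the platform annotation with a gene of the chloroplast genome whose symbol begins with psa, psb, pet or ndh or is rbcL. They comprise 5 probe sets for photosystem I (psa), 15 for photosystem II (psb), 6 for the cytochrome b6f complex (pet), 11 for the NADH dehydrogenase-like complex (ndh) and 1 for the large subunit of Rubisco (rbcL). All such probe sets were taken, whatever their signal. The platform names 77 plastid probe sets in all, and the remaining plastid genes are 6 of the ATP synthase and 33 of ribosomal proteins, RNA polymerase and other functions.

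These genes encode the plastid share of the light reactions. Photosystem II oxidises water and passes electrons through the cytochrome b6f complex to photosystem I, the NDH complex returns electrons to the plastoquinone pool, and Rubisco fixes carbon dioxide. Each complex also holds subunits made in the nucleus. Most plastid genes lie in operons that are transcribed together and cut into smaller RNAs, and the stability of those RNAs is known to be an important part of plastid gene expression.

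Seedlings of the ecotype Columbia were germinated at 22°C for 3 days, kept at 17°C or 27°C for 7 days in cycles of 12 h light and 12 h dark, and floated on MS medium for 12 h. At dawn, total (T) RNA was taken (time 0), and the base analogue 4-thiouracil (4SU), which is built into RNA made after its addition, was given to the remaining seedlings. After 2 h at 17°C or 1 h at 27°C, T RNA was taken again, and the same RNA was divided over a streptavidin column into newly synthesized (NS), 4SU-containing RNA and pre-existing (PE) RNA. The 8 groups are therefore T RNA at time 0, T RNA at the end, NS RNA and PE RNA at each temperature, with 3 biological replicates and so 24 arrays of 1 channel. Per the labels, seedlings were 10 days old and 4SU was at 1.5 mM, whereas the methods give a slightly greater age and a 4SU concentration that varied with temperature and labeling time. The labeling time differs between the temperatures, all RNA at the end of labeling came from seedlings with 4SU, and time 0 RNA came from seedlings without it, so that 4SU and time of day cannot be told apart. Whole seedlings were used, and 1 green shoot marker of 10 could be checked: the signal of RCA, which encodes Rubisco activase, was 15445 to 28124 over the 24 arrays and lay above the array median on all total RNA arrays. Of 10 root markers, 2 (EXPA7 and EXPA18) were named and kept, with a summed signal of 175 to 386. In whole seedlings, fewer plastids or green cells and less RNA per plastid cannot be told apart.

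The values are MAS5 signals, scaled to the same mean of 500 on each array. Equal amounts of RNA were loaded for all fractions, so an NS or PE signal is relative to the other RNA of its own array and not an amount per seedling. The RNA was labelled with an Affymetrix IVT kit. Such kits commonly prime on poly(A) tails, which most plastid mRNAs do not carry as a stable feature, and how fully the RNA of these genes was copied was not tested. Since each probe set binds its RNA with its own strength, no gene's level is set against another's. Between replicates, log2 signals had a Pearson's r of 0.959 to 0.987 over the probe sets kept for testing and of 0.846 to 0.995 over the 38 genes alone. The 38 genes made up 0.672 to 0.983% of the summed signal on the 12 T arrays, 0.760 to 0.965% on the 6 PE arrays and 0.312 to 0.593% on the 6 NS arrays, and the NS range did not overlap with the others.

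Tests covered the 12906 of 22746 probe sets (56.7%) with a signal of at least 50 on every T array. Of the 38 genes, 34 were kept: all 5 psa, all 15 psb, 5 of 6 pet, 8 of 11 ndh, and rbcL. Just inside that limit, the lowest T signal was 60.5 for psaA, 63.8 for psaC and 65.5 for ndhG. The 4 genes outside it were petD, with a lowest T signal of 44.0, ndhH with 35.4, ndhB with 20.9 and ndhF with 1.19. The ndhB probe set reads both copies of the inverted repeat. For ndhB, which encodes a membrane subunit of the NDH complex, no group mean passed 100 except in PE RNA at 27°C, where the arrays read 43.2, 68.0 and 339.7. Calls needed a limma p under 0.01 after Benjamini-Hochberg adjustment and a fold above 1.5, and p-values measure the spread between these 3 biological replicates.

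Several arrays stood apart for the dimmer genes. The counts of calls below are also given without each whole culture and, for NS against PE RNA, without 2 of the PE arrays. The NS array that stood apart was left out only with its culture. In PE RNA at 27°C, 10 of the 34 genes (29.4%) spread by more than 3-fold between replicates, against 0.94% of all kept probe sets, and replicate 3 was the highest for all 10. In PE RNA at 17°C, 8 of 34 (23.5%) did so, against 0.46%, and replicate 1 was the highest for all 8. In NS RNA at 27°C, the same spread was seen for 10 of 34, against 1.1%, and replicate 2 was the highest for each of them. In contrast, no gene of the 34 spread by that much in T RNA at 17°C and time 0, and at most 3 did in any group of T RNA. The psbB signal, of a core antenna protein of photosystem II, shows the size of this spread, with 226, 248 and 4451 in PE RNA at 27°C. For ndhG, an NDH membrane subunit, PE RNA read 1810.3, 179.5 and 119.7 at 17°C and 1312, 279.6 and 2588 at 27°C. The high arrays are thus replicate 1 at 17°C and replicates 1 and 3 at 27°C for ndhG, but replicate 3 alone for psbB at 27°C. Whether the PE separation of those cultures plays a part was not tested.

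**Figure D1:**
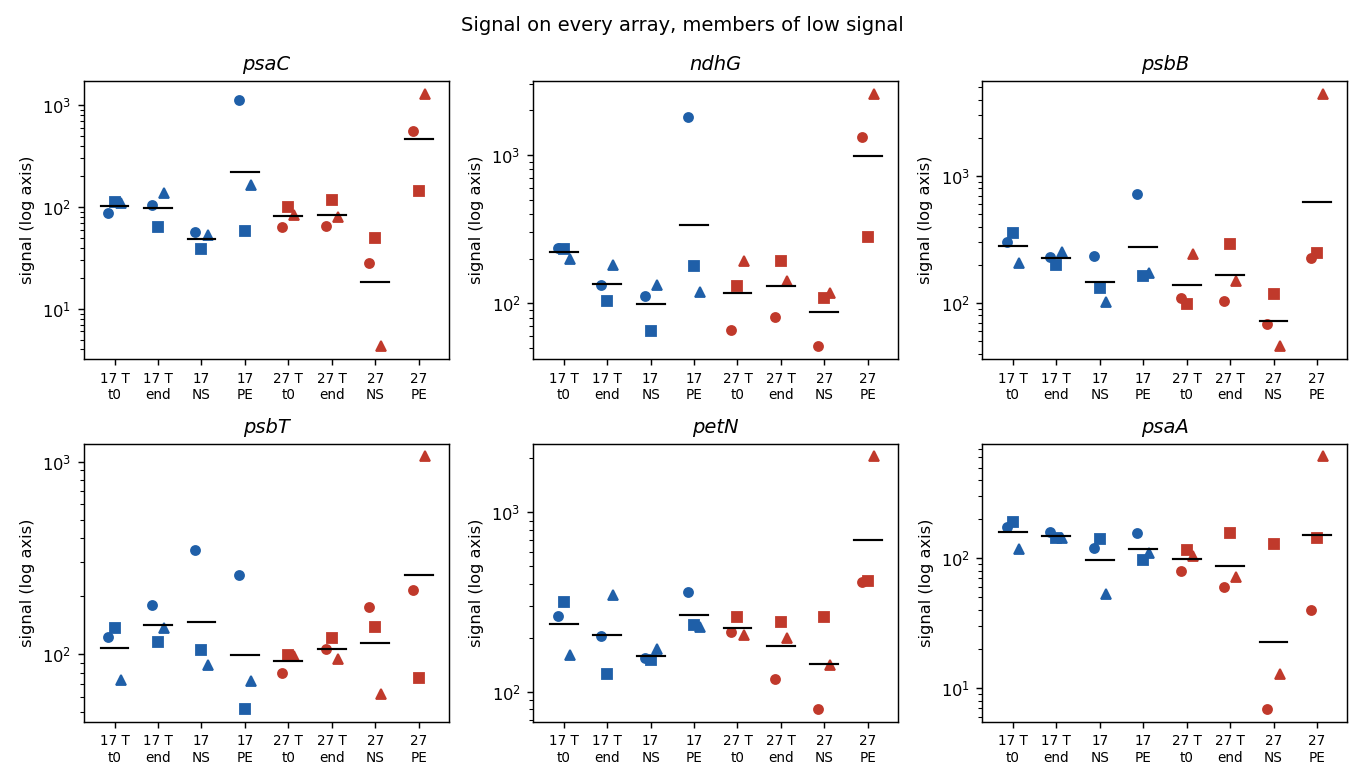
Signal (log axis) of psaC, ndhG, psbB, psbT, petN and psaA on all 24 arrays, by temperature (17°C blue, 27°C red) and RNA (T at time 0, T at the end, NS, PE); circles, squares and triangles are replicates 1, 2 and 3, and bars are geometric means. Replicate 3 of PE RNA at 27°C is the highest PE point at that temperature in every panel, with 4451 for psbB against 226 and 248 in replicates 1 and 2.

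The clearest pattern in these genes was a difference between NS and PE RNA. At 17°C, 12 of 34 genes were lower and 2 higher in NS than in PE RNA, whereas 21.9% of all 12906 probe sets were called lower and 35.6% higher, 57.4% in either direction. At 27°C, 19 were lower and 3 higher, against 17.9% and 37.7% of all probe sets, 55.7% in either direction. At 17°C, every NS array lay below every PE array for 15 of the 34 genes and above it for 4. Of all 12906 probe sets, 3677 and 5862 did so. At 27°C these counts were 20 and 3 of the 34 genes, beside 3278 and 6177 of all. A lack of overlap between NS and PE arrays was thus common on these arrays. The median log2 difference (NS minus PE) of the 34 genes was -0.76 at 17°C and -1.28 at 27°C, beside 0.29 and 0.37 over all probe sets. When each array was scaled on the median of the plastid probe sets, which sets most of this shift to 0 by construction, the medians became -0.043 and -0.15. The calls then split into 7 higher and 9 lower at 17°C, beside 60.3% of all probe sets called in either direction. At 27°C there were 5 higher and 14 lower, beside 73.9%. Of the 34 genes, 11 were lower at both temperatures, 2 (rbcL and psbN) were higher at both, and 11 were called at neither. Across the 34 genes, the log2 difference at 17°C and that at 27°C, from separate cultures, had a Spearman's rho of 0.818, beside 0.915 over all kept probe sets, in both cases through the same probe sets.

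How many genes were called at 27°C depended on single cultures. Without 27°C replicate 3, 12 genes were called in place of 22 (46.8% of all probe sets). Without 27°C replicate 1 there were 15 (46.4% of all), and without 27°C replicate 2 there were 27 (48.6% of all). The calls of 11 genes held whichever culture was left out: psbE, psbF, psbJ, psbL, psbH, psbK, ndhA, ndhI, psaB and petN among the lower ones, and rbcL among the higher. At 17°C, 10 of the 14 calls held in the same way, and petA, psaB, psaJ and psbI lost theirs in at least 1 case. Leaving out only the PE arrays of 17°C replicate 1 and 27°C replicate 3, a choice made after seeing the data, gave 13 calls at 17°C (52% of all probe sets) and 16 at 27°C (50.4%). With no filter on low signal, 11 of the 34 genes were called at each temperature, beside 30% of all probe sets at 17°C and 28.8% at 27°C, so that the share was near the background.

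**Figure D2:**
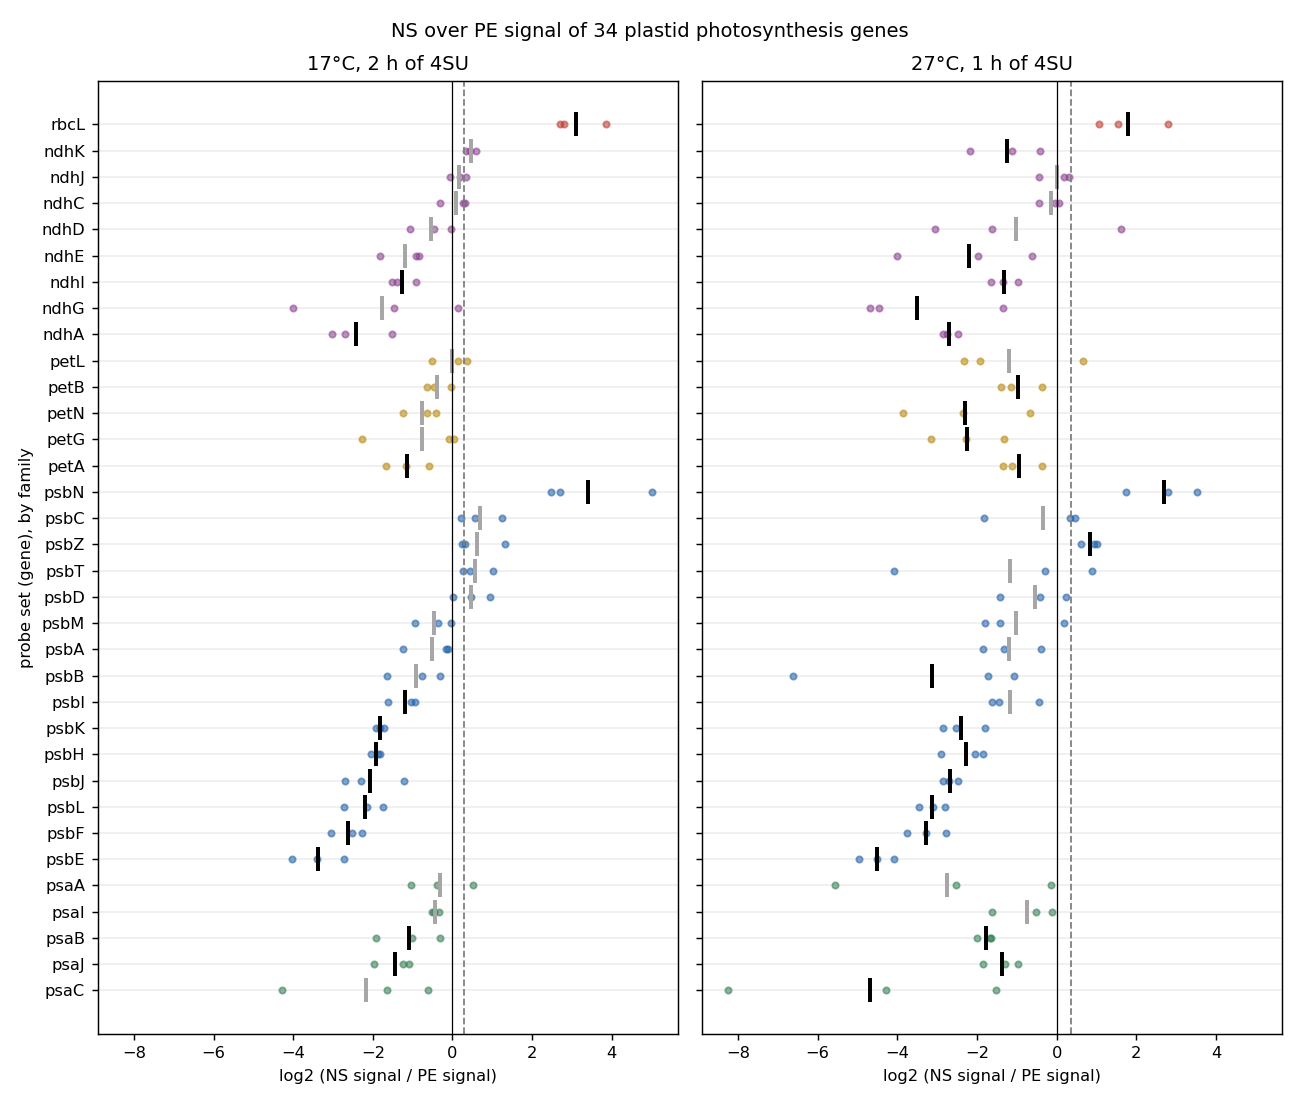
Log2 ratio of NS to PE signal for the 34 tested genes at 17°C (left, after 2 h of 4SU) and 27°C (right, after 1 h), grouped by family (green psa, blue psb, gold pet, purple ndh, red rbcL). Points are the 3 cultures, upright bars the means (black where called, grey where not), and the dashed line is the median over all 12906 kept probe sets. rbcL and psbN lie to the right of 0 in all 6 cultures, and psbE, psbF, psbL and psbJ to the left of it in all 6.

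In photosystem II, 7 of 15 genes were lower in NS RNA at each temperature, and 1 (psbN) was higher at 17°C and 2 (psbN and psbZ) at 27°C. The gene of the family furthest below 0 at both temperatures was psbE, which encodes the alpha subunit of cytochrome b559. Its NS signals at 17°C were 389.5, 947 and 638, against 6333, 6260.1 and 6795 in PE RNA. At 27°C they were 476, 347 and 396 against 8096, 10775 and 9044. Every NS array lay far below every PE array, and the log2 difference was -3.39 ± 0.25 (SE) at 17°C (adjusted p = 2.15e-07) and -4.52 ± 0.25 (SE) at 27°C (adjusted p = 6.25e-08). The other genes of its operon are psbF, the beta subunit of cytochrome b559, and psbL and psbJ, which encode small membrane subunits of photosystem II. They behaved alike: all 4 genes were lower in NS RNA at both temperatures, with log2 differences from -3.39 to -2.07 in the 17°C cultures and from -4.52 to -2.68 in those at 27°C. The small subunit genes psbK (-1.83 and -2.40) and psbH (-1.91 and -2.27) were lower at both temperatures too. The gene psbI, also for a small subunit and in the same operon as psbK, was lower at 17°C (-1.20, adjusted p = 0.00878) and just missed the limit at 27°C (-1.17, adjusted p = 0.0101). At 27°C, psbB was lower by the test (-3.13, adjusted p = 0.00827), but its log2 difference was -1.40 without 27°C replicate 3, and the call was lost there, without 27°C replicate 1 (-3.84), without 17°C replicate 2 or 3, and with no filter.

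The exception in this family was psbN. This gene lies on the opposite strand within the psbB operon, between psbT and psbH, and encodes a protein needed to assemble photosystem II rather than a subunit of it. Its NS arrays read 917, 443 and 1647 at 17°C, and 1405, 1235 and 1833 at 27°C. Its PE arrays read 164, 68.2 and 51.2 at 17°C, and 202, 107 and 552 at 27°C, all below every NS array of the same temperature. The log2 differences were 3.40 ± 0.58 (SE) (adjusted p = 0.000156) and 2.68 ± 0.58 (SE) (adjusted p = 0.00101), the highest of the 34 genes at both temperatures, although the 27°C call was lost without 27°C replicate 1 and with no filter. On the other strand, psbH was lower in NS RNA, with 329.7, 182 and 358 against 1168, 759 and 1301 in PE RNA at 17°C and 175, 211 and 183 against 633, 869 and 1367 at 27°C.

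The psbD operon also differed from the psbE operon. Its genes psbD (the D2 reaction centre protein), psbC (a core antenna protein) and psbZ (a small subunit) all had log2 differences above 0 at 17°C, from 0.47 to 0.68, with none called. At 27°C, psbZ was higher, by 0.85 ± 0.20 (SE) (adjusted p = 0.0023), and psbC (-0.34) and psbD (-0.53) were not called. The psbZ call was lost without 27°C replicate 1 or 3, with no filter, under array medians and with the 2 PE arrays left out. The psbZ signals there were 7684, 6702 and 6167 in NS RNA and 4016, 4426 and 3062 in PE RNA, without overlap. For psbD, NS RNA read 450.0, 266 and 279 at 17°C and 119, 373 and 231 at 27°C, and PE RNA 235, 261 and 202 and 159, 319 and 616. The psbD arrays at 17°C did not overlap, though the gap was narrow (NS lowest at 266, PE highest at 261), and those at 27°C did. For psbA, which encodes the D1 reaction centre protein, NS signals were 1629, 1058 and 1253 and PE signals 1765, 2523 and 1406 at 17°C (log2 difference -0.51, adjusted p = 0.268). At 27°C, psbA read 735, 2092 and 520.0 in NS and 1837, 2767 and 1868 in PE RNA (-1.19, adjusted p = 0.0175). The unpaired psbA groups overlapped at both temperatures, but NS lay below PE RNA in all 6 cultures, with log2 ratios of -0.12, -1.25 and -0.17 at 17°C and -1.32, -0.40 and -1.85 at 27°C. With the replicate number as a block, which pairs NS with PE RNA of a culture, psbA and psbI were called lower at 27°C. The remaining genes, psbT and psbM, which encode small subunits, were called at neither temperature.

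Among the cytochrome b6f genes, 1 of 5 was lower in NS RNA at 17°C and 4 of 5 at 27°C. The gene called at both was petA, which encodes cytochrome f, at -1.14 and -0.95. At 27°C, petB for cytochrome b6 (-0.97) and the small subunit genes petG (-2.25) and petN (-2.29) were called as well, whereas petL, another small subunit, was not (-1.20, adjusted p = 0.0333). For petB, the NS signals at 27°C were 3166, 3318 and 1928 and the PE signals 4072, 7385 and 5051, with every NS array below every PE array. At 17°C, petB read 4120.1, 7351 and 4554 in NS and 6377, 7580.1 and 6302 in PE RNA, and these overlapped. Of these calls at 27°C, only that of petN held in every leave-out of 1 culture, though it was lost with no filter, and petA and petB turned to 0.19 and 0.17 under the plastid scaling.

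In photosystem I, all 5 genes had log2 differences below 0 at both temperatures. The subunit gene psaB, for a reaction centre protein, was lower at 17°C (-1.08) and 27°C (-1.77), as was psaJ, for a small subunit (-1.44 and -1.38). The psaB call was lost at 17°C without 17°C replicate 1, and at both temperatures under the plastid scaling. The psaJ call was lost at 17°C without 17°C replicate 1 or 2, and at 27°C without 27°C replicate 1 or 3 and with the 2 PE arrays left out. At both temperatures psaJ also lost its call with no filter, under the plastid scaling and in the fit to all 24 arrays. The fitted value was lowest at 27°C for psaC, which encodes the protein carrying the terminal iron-sulphur clusters, but its NS signals there did not exceed the limit of 50 set for T arrays, so neither its size nor its place among the genes is well determined. Its signals were 28.5, 50 and 4.28 in NS and 557, 144 and 1298 in PE RNA, a log2 difference of -4.68 ± 1.05 (SE) (adjusted p = 0.00137). At 17°C they were 57.3, 38.5 and 53.2 in NS and 1121, 58.7 and 166 in PE RNA (-2.18 ± 1.05 (SE), adjusted p = 0.0775). The NS arrays of psaC lay below all PE arrays at both temperatures. Leaving out only the PE arrays of 17°C replicate 1 and 27°C replicate 3 gave -3.95 at 27°C and kept the call, whereas without the whole 27°C replicate 3, whose NS array read 4.28, the value was -2.90 and not called. With no filter the call was lost as well. The other reaction centre gene, psaA, was called at neither temperature, with 6.91, 129 and 12.9 in NS and 40.2, 143 and 609.7 in PE RNA at 27°C. Of the NS arrays of psaA at 27°C, replicate 2 alone lay above 100. The small subunit gene psaI was not called either.

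Of the 8 tested NDH genes, 2 were lower at 17°C and 5 at 27°C. The membrane subunit gene ndhA had the lowest adjusted p of the family at both temperatures, with 752, 1792 and 883 in NS against 6134, 5176 and 5774 in PE RNA at 17°C. At 27°C the signals were 792, 866 and 643 against 4409.6, 5878 and 4632, again without overlap. Its log2 differences were -2.42 ± 0.26 (SE) (adjusted p = 3.64e-06) and -2.70 ± 0.26 (SE) (adjusted p = 1.82e-06). The gene for the iron-sulphur subunit, ndhI, was lower as well (-1.27 and -1.32). Both belong to the operon that begins with ndhH and holds psaC, of which 6 genes were tested: all 6 lay below 0 at both temperatures, with 2 called at 17°C and 5 at 27°C. By contrast, the 3 genes of the ndhC operon (ndhC, ndhK and ndhJ) lay at 0.09 to 0.45 at 17°C with none called, and at 27°C only ndhK was lower (-1.24, adjusted p = 0.00454). The calls of ndhE, ndhG and ndhK at 27°C were lost without 27°C replicate 1, without 27°C replicate 3, and with no filter. Those of ndhE and ndhK were also lost without 17°C replicate 3 and with the 2 PE arrays left out, that of ndhE without 17°C replicate 2, and those of ndhK and ndhI under the plastid scaling. Under the plastid scaling ndhC, not called otherwise, was called at 27°C with 0.99 in place of -0.14. Outside the filter, petD, ndhH and ndhF also lay below 0 at both temperatures (ndhF -1.29 and -3.06), and ndhB lay at 0.37 and -2.35; none of the 4 was called.

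Rubisco stood on the other side. In NS RNA, the rbcL arrays read 7429.8, 8788 and 7165 at 17°C. At 27°C they read 5007, 2190.4 and 2662. The PE arrays read 1147, 609 and 1032 at 17°C, against 717, 759 and 1266 at 27°C. Every NS array lay above every PE array of its temperature, by 3.11 ± 0.31 (SE) at 17°C (adjusted p = 2.02e-06) and 1.80 ± 0.31 (SE) at 27°C (adjusted p = 0.000204). Both calls held in all alternatives tried.

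**Figure D3:**
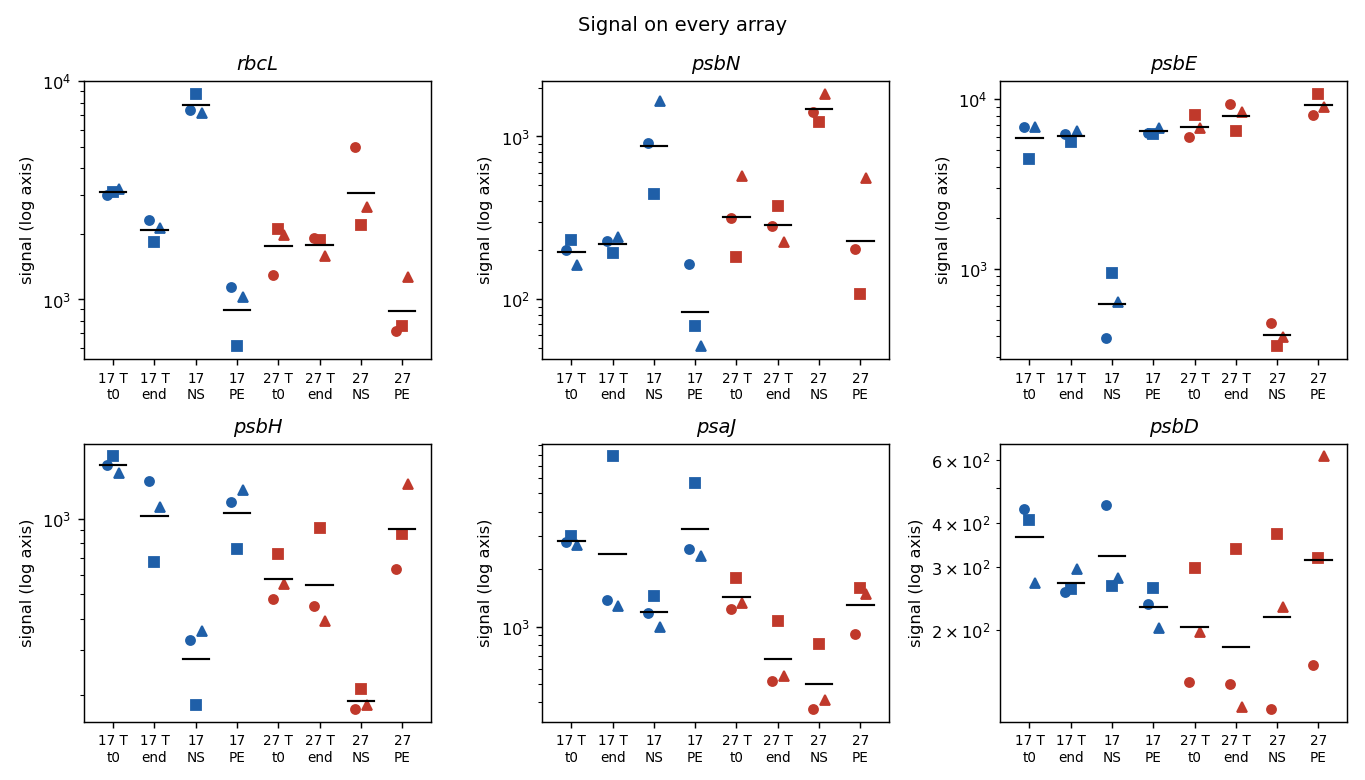
Signal (log axis) of rbcL, psbN, psbE, psbH, psaJ and psbD on all 24 arrays, with colours, symbols and bars as in the plot of members of low signal. NS lies above PE for rbcL and psbN and below it for psbE and psbH at both temperatures, and psaJ shows 1 high T array at 17°C, replicate 2 with 7831.

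The families differed less from each other than rbcL and psbN did from the rest. Taken per culture, the family median of log2 NS over PE, less the median of all kept probe sets, was -1.10 ± 0.44 (SD, n = 3) for psa, -1.34 ± 0.13 for psb, -0.98 ± 0.43 for pet and -0.95 ± 0.44 for ndh at 17°C. At 27°C it was -1.85 ± 0.46 for psa, -1.81 ± 1.01 for psb, -2.13 ± 0.58 for pet and -1.85 ± 0.99 for ndh. The 4 families were read in the same cultures, so these SDs do not measure the difference between families, which was not tested. Within cultures, psb lay below ndh in all 3 at 17°C but above it in all 3 at 27°C, where the margins were narrow. Before the median of all probe sets was taken off, psb was at -1.45, -0.45 and -2.47 there and ndh at -1.48, -0.52 and -2.52. At 27°C, pet lay below psa in all 3 cultures. No other pair of families kept its order in all 3 cultures of a temperature. The plastid ATP synthase genes (6) were at -1.15 ± 0.29 and -1.70 ± 0.39, and the 30 other plastid genes at -0.52 ± 0.35 and -1.23 ± 0.36. For rbcL the same measure was 2.84 ± 0.65 and 1.45 ± 0.90. The sign of each family's median was kept under quantile, array median and plastid scaling, but under the last it shrank to between -0.04 and -0.36 at 17°C and between -0.05 and -0.63 at 27°C. Across the 34 genes, the log2 difference had a Spearman's rho of 0.104 with gene length at 17°C and 0.032 at 27°C, as a description.

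The difference of the log2 values between temperatures was below 0 (further towards PE RNA at 27°C) for 30 of the 34 genes, with a median of -0.68 beside 0.09 over all probe sets. It was below 0 for 5243 of all 12906 probe sets. The rest of the plastid genes went the same way: 6 of 6 for ATP synthase (median -0.34) and 27 of the 30 others (median -0.55). No single gene was called by limma for that difference, beside 0.0697% of all probe sets (0.0232% higher, 0.0465% lower). At an unadjusted p under 0.05 there were 6 of the 34 genes, beside 2248 of all 12906 probe sets. The family medians were -0.69 for psa, -0.68 for psb, -1.20 for pet and -0.38 for ndh, and that of ndh turned to 0.03 under the plastid scaling. The lowest fitted value was that of psaC at -2.50 ± 1.48 (SE) (adjusted p = 0.418) and the highest that of psbZ at 0.22 ± 0.29 (SE) (adjusted p = 0.743). The median ran from -1.07 to -0.36 when cultures were left out 1 at a time. The comparison is between 2 h of labeling at 17°C and 1 h at 27°C, so temperature and labeling time cannot be told apart in it.

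The fractions can be put on the scale of T RNA with the correction factors of the methods, which come from a regression of PE/T on NS/T over all kept probe sets. The fit was loose, with an r2 of 0.35 at 17°C and 0.29 at 27°C. Lines per culture gave a lower NS factor (0.0889 to 0.1221 at 17°C, 0.1477 to 0.1888 at 27°C) than the 0.1345 and 0.2189 used. The SDs below hold these factors fixed. The new share, the scaled NS signal as a percent of scaled NS plus PE signal, was then computed per culture. This takes RNA of every gene to be labelled and captured alike, which was not tested. The median new share of the 34 genes was 9.44% at 17°C after 2 h and 11.0% at 27°C after 1 h, beside 16.4% and 27.0% over all kept probe sets. Of the 34 genes, 27 lay below the median of all probe sets at 17°C and 31 at 27°C. The psbN share was 60.5 ± 20.1% (SD, n = 3) at 17°C and 63.9 ± 14.2% at 27°C, and the rbcL share 57.6 ± 10.4% and 49.7 ± 15.1%. Both were among the highest on the array: psbN stood at the percentile 99.992 of all kept probe sets at 17°C and 99.923 at 27°C, and rbcL at 99.985 and 96.087. By culture, the psbN share at 17°C was 47.0, 50.8 and 83.6%, the last with a PE signal near the limit of 50 set for T arrays. At the other end, psbE had a new share of 1.59 ± 0.70% at 17°C and 1.26 ± 0.37% at 27°C, percentiles 0.302 and 0.046. Between these ends, psbC (20.7 ± 6.1% at 17°C), psbZ, psbT, psbD and ndhK lay above the median of all probe sets at 17°C, and at 27°C only psbZ (33.9 ± 3.4%) joined rbcL and psbN.

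**Figure D4:**
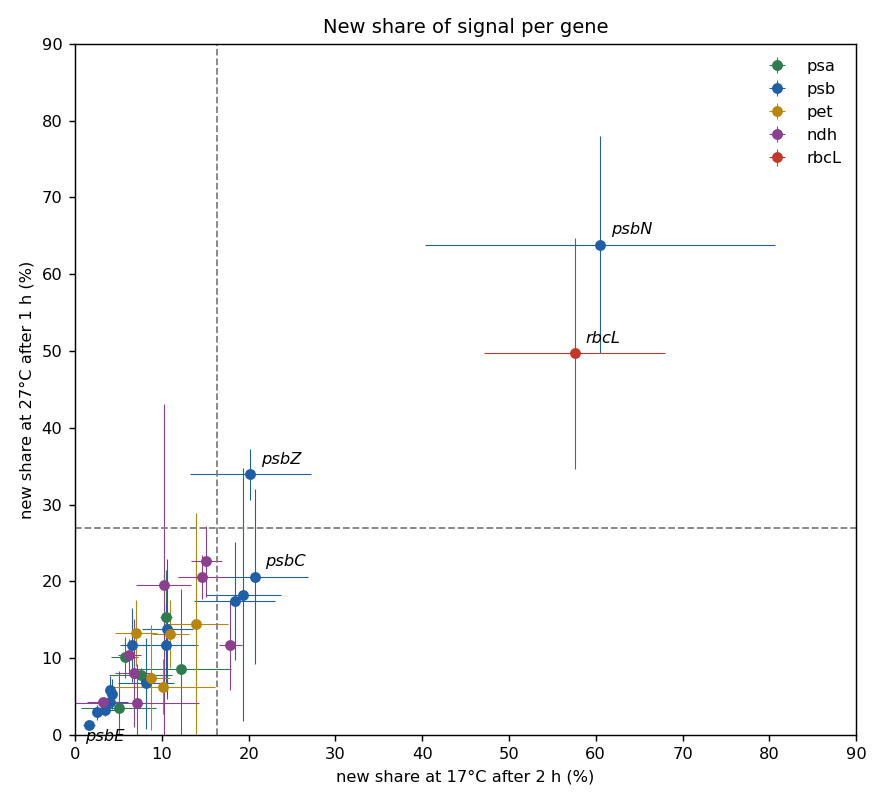
New share (percent of scaled NS plus PE signal) of the 34 tested genes at 17°C after 2 h against 27°C after 1 h, coloured by family; points are means and bars SD of 3 cultures. Dashed lines mark the medians over all 12906 kept probe sets, 16.4% and 27.0%; psbN and rbcL stand alone above 45% on both axes, and psbE lies nearest to 0.

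A half-life and a transcription rate follow from these scaled values only where the scaled PE signal lay below the time 0 signal of the same replicate number for all 3 numbers at both temperatures. That held for 5 of the 34 genes (14.7%): psbC, psbK, psbN, psbZ and rbcL, beside 6061 of 12906 probe sets (47.0%). At 17°C alone, 20 of the 34 genes met it, and at 27°C alone 7. For rbcL, the half-life was 1.02 ± 0.23 h (SD, n = 3) at 17°C and 0.78 ± 0.22 h at 27°C. Its transcription rate in signal units per hour was 989.9 ± 246 in the cooler and 1098 ± 459 in the warmer seedlings, a log2 ratio of 0.10 ± 0.28 (SE, adjusted p = 0.728). Transcription was called faster at 27°C for 3 of the 5 genes: psbN (2.19 ± 0.38, adjusted p = 0.000191), psbK (1.64 ± 0.30, adjusted p = 0.000256) and psbZ (1.58 ± 0.21, adjusted p = 2.08e-05), with SE. The 3 psbK half-lives at 27°C spread from 1.13 to 15.9 h. Of all probe sets with rates, 98% were called faster and 0.0825% slower, and the median log2 ratio was 1.79, so the share of these genes was not above the background. None of the 5 was called for another decay rate at an adjusted p under 0.05, whereas 64.4% of all probe sets were called for faster and 0.0495% for slower decay at 27°C. The nearest was psbZ, whose half-life was 3.33 ± 1.23 h at 17°C and 1.42 ± 0.61 h at 27°C (adjusted p = 0.0511). With the mean of the time 0 arrays as the starting level, 5 genes were called for transcription and 1 for decay. The share over all probe sets is not given for that setting.

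In T RNA, few of these genes were called between the temperatures. By limma, 15 of the 34 had an unadjusted p under 0.05 at time 0, beside 6271 of all 12906 probe sets. At time 0, after 7 days at either temperature, 3 of 34 genes (8.82%) were lower at 27°C and none higher, beside 22.8% of all probe sets called in either direction with 10.7% called higher and 12.1% lower. These were psbH, rbcL and ndhA. The psbH arrays read 1639.6, 1768 and 1512 at 17°C against 480.2, 723 and 549.7 at 27°C, a log2 difference of -1.51 ± 0.30 (SE) (adjusted p = 0.00136). The rbcL signals were 3029.8, 3116 and 3198 against 1292, 2109 and 1986 (-0.83 ± 0.18 (SE), adjusted p = 0.00217). For ndhA they were 7033, 6825 and 5282 against 2842, 5163 and 3454 (-0.77 ± 0.20 (SE), adjusted p = 0.00655). In all 3 genes, every 27°C array lay below every 17°C array, though how often that held over all probe sets was not counted. The highest value was that of psbN (0.71 ± 0.31 (SE), adjusted p = 0.0861), with 201, 230.5 and 162 at 17°C and 314, 182 and 573 at 27°C, which overlapped. All 5 psa and all 5 pet genes lay below 0, with none called, and their medians of -0.33 and -0.56 turned to 0.40 and 0.17 under the plastid scaling, as did those of psb (-0.05 to 0.69) and ndh (-0.18 to 0.55). That scaling moved the median of all probe sets by 0.73 on the log2 scale. Without it, 28 of the 30 other plastid genes (median -0.51, 3 called lower) and 4 of 6 ATP synthase genes (median -0.31) also lay below 0. None of the calls of psbH, rbcL and ndhA held without 27°C replicate 1 or with no filter, where 17.5% and 8.43% of all probe sets were called. Without 27°C replicate 2, 7 of the 34 genes (1 higher, 6 lower) were called, beside 21.2% of all probe sets. Under the plastid scaling 6 were called higher and none lower, beside 43.2%. When all 24 arrays shared a fit, 1 was called, beside 22.3%.

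At the end of labeling, no gene of the 34 was called by limma between 27°C and 17°C, beside 10.8% of all probe sets (4.97% higher, 5.87% lower). At an unadjusted p under 0.05 there were 4 of the 34 genes, beside 4507 of all 12906 probe sets. The lowest value was that of psaJ, with 1372, 7831 and 1284 at 17°C and 517, 1071 and 548 at 27°C. Its log2 difference was -1.84 ± 0.51 (SE) (adjusted p = 0.0182), with every 27°C array below every 17°C array and 17°C replicate 2 far above the rest. It was called under 5 of the alternatives, among them a block for replicate number and a fit to all 24 arrays. The highest value was that of psbJ, 0.48 ± 0.29 (SE) (adjusted p = 0.247), with 5918, 6179 and 3069 at 17°C and 4519, 7702 and 8814 at 27°C. Without 27°C replicate 2, 4 genes (psaA, psbC, psbD and psbH) were called lower, beside 9.1% of all probe sets called in either direction. For rbcL the end arrays read 2322, 1839 and 2136 at 17°C against 1917, 1867 and 1579.8 at 27°C, which overlapped (-0.23 ± 0.18 (SE), adjusted p = 0.376).

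**Figure D5:**
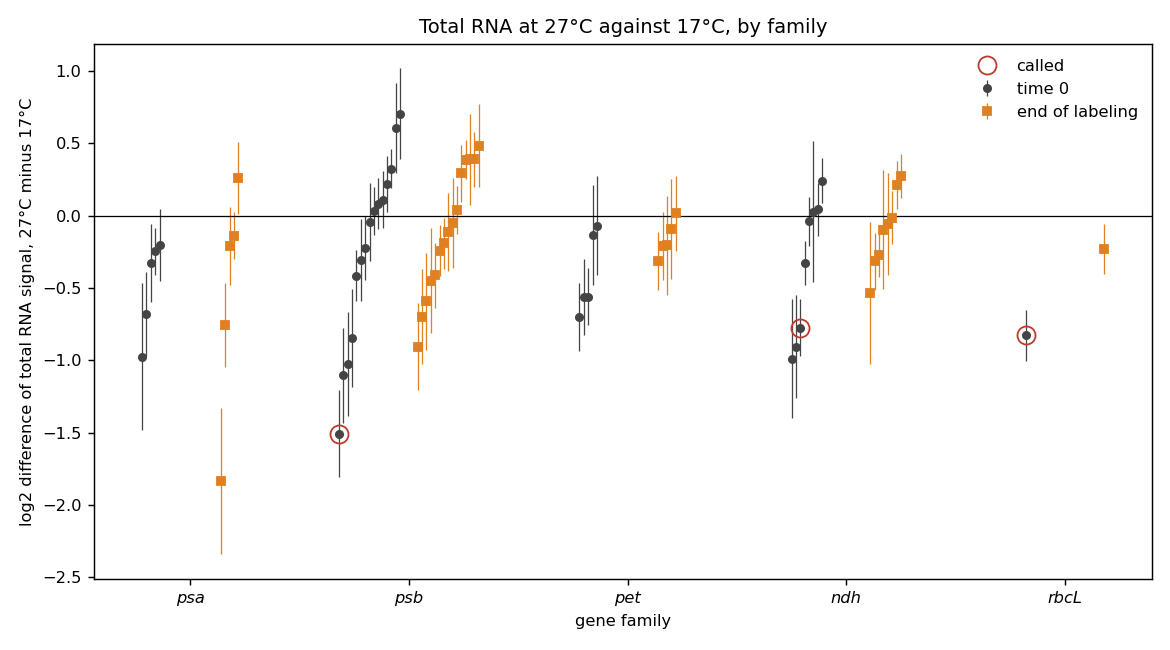
Log2 difference of T RNA signal, 27°C minus 17°C, for each of the 34 tested genes by family, at time 0 (grey circles) and at the end of labeling (orange squares), with bars of 1 SE; red rings mark called genes. The 3 rings, all at time 0 and below 0, are psbH, ndhA and rbcL.

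None of the reaction centre genes psbA, psbD and psaA, nor petB, was called in T RNA at either time: every adjusted p was above the limit, also where the fold passed 1.5. For psbA, T RNA at time 0 read 1261, 1136 and 1229 at 17°C against 1681, 1576 and 2341 at 27°C (0.61, adjusted p = 0.139), and at the end 1194, 3209 and 1051 against 1318, 1744 and 1577 (-0.05, adjusted p = 0.927). For psbD, it read 438, 408 and 270.5 against 142, 298 and 197 at time 0 (-0.85, adjusted p = 0.0588), and 255, 259.8 and 297 against 140.4, 337 and 121 at the end (-0.59, adjusted p = 0.227). The time 0 arrays of psbA did not overlap and lay higher at 27°C, whereas the end arrays did, as did both sets of psbD. For psaA, the time 0 arrays read 176, 192 and 118 against 80.3, 116 and 104 (-0.68, adjusted p = 0.0745), and the end arrays 159, 143 and 145 against 60.5, 157 and 71.6 (-0.76, adjusted p = 0.074). For petB, they read 6595, 6211 and 5787 against 3686, 5192 and 3861 (-0.56, adjusted p = 0.0363), then 5404, 7255 and 4621 against 3651, 5673 and 4550.5 (-0.31, adjusted p = 0.278). The time 0 arrays of psaA (by 118 against 116) and of petB lay lower at 27°C without overlap, and their end arrays overlapped.

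Within the morning, T RNA of these genes was called neither at 17°C over 2 h nor at 27°C over 1 h. By limma, 0 of 34 genes were called at 17°C, beside 12.4% of all probe sets (5.78% higher, 6.6% lower), and 0 at 27°C, beside 25.8% (11.3% higher, 14.5% lower). An unadjusted p under 0.05 was seen for 6 of the 34 at 17°C, beside 4636 of all 12906 probe sets. At 27°C it was seen for 1, beside 6451. The lowest values were those of petG at 17°C, which went from 272, 232 and 233 to 162, 99.7 and 133 (-0.93 ± 0.26 (SE), adjusted p = 0.0191), and of psaJ at 27°C, which went from 1235, 1800.3 and 1335 to 517, 1071 and 548 (-1.10 ± 0.51 (SE), adjusted p = 0.097). For both genes the end arrays lay below all time 0 arrays. The highest were ndhD at 17°C, from 318, 408 and 287 to 236, 1419.8 and 328 (0.52), where 1 of 3 arrays set the value, and psbJ at 27°C, from 3938, 4587 and 6264 to 4519, 7702 and 8814 (0.48). The difference of these changes was called for none of the 34 genes, beside 2.38% of all probe sets (0.721% higher, 1.66% lower). Of the 34, rbcL alone had an unadjusted p under 0.05, beside 3021 of all 12906 probe sets. The value was highest for ndhE (0.89 ± 0.58 (SE)) and lowest for psaJ (-0.86 ± 0.72 (SE)).

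Within NS RNA, rbcL alone was lower at 27°C (1 of 34, or 2.94%, beside 12% of all probe sets, 6.15% called higher and 5.89% lower). Its log2 difference was -1.33 ± 0.31 (SE) (adjusted p = 0.00828), and all 3 arrays at 27°C lay below all 3 at 17°C. This call lay close to the limit and was lost in 5 of the 6 leave-outs of 1 culture, all but that of 27°C replicate 1. The median of the 34 genes was -0.47, with psa at -1.26, psb at -0.46, pet at -0.47 and ndh at -0.20, beside 0.02 over all probe sets. Under the plastid scaling the 34-gene median was -0.06 and that of ndh turned to 0.21. The fitted value was lowest for psaA at -2.10 ± 0.98 (SE) (adjusted p = 0.136), whose arrays read 120.5, 139.8 and 53.1 at 17°C and 6.91, 129 and 12.9 at 27°C. These overlapped, and with 2 of the 3 arrays at 27°C far below 50, its size and place are not well determined. In PE RNA no gene was called by limma, beside 8.93% of all probe sets (3.4% higher, 5.52% lower). At an unadjusted p under 0.05 there were 5 of the 34 genes, beside 4438 of all 12906 probe sets. The median of the 34 genes was 0.41 beside -0.08. The highest, ndhG (1.54 ± 0.90 (SE), adjusted p = 0.249), is one of those for which PE replicates stood apart. The lowest was psaJ at -1.32 ± 0.36 (SE) (adjusted p = 0.0197), with 2541, 5684 and 2353 at 17°C and 914, 1593 and 1488 at 27°C.

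The nuclear genes for partners in the same complexes could be followed for 13 named and kept genes: 3 of the antenna, 3 of photosystem II, 2 of photosystem I, 1 of the cytochrome b6f complex, 3 of the NDH complex, and Rubisco activase. None of the 13 was called between the temperatures in T RNA at either time, beside 22.8% of all probe sets at time 0 and 10.8% at the end. In NS against PE RNA, 3 of 13 were lower and 1 higher at 17°C, and 2 were lower and 1 higher at 27°C, with medians of -0.15 and -0.04. Of all probe sets, 21.9% were called lower and 35.6% higher at 17°C, and 17.9% lower and 37.7% higher at 27°C. The gene lower by the largest amount was NDHL, for a nuclear subunit of the NDH complex, at -1.40 (adjusted p = 1.2e-05) at 17°C. PETM, of the cytochrome b6f complex, was at -0.73 and -0.62, and NDHS, another NDH subunit, was the higher one at 0.84 and 0.87. During the morning, the antenna gene LHCB4.3 rose at 17°C by 0.94 (adjusted p = 0.00186) and NDHN, an NDH subunit, rose at 27°C by 0.99 (adjusted p = 0.000377). Of all probe sets, 5.78% were called higher over the morning at 17°C and 11.3% at 27°C. The difference between these nuclear genes and the plastid genes was not tested.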

How the data were processed

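Seedlings were measured on 24 ATH1 arrays, 3 biological replicates in each of 8 groups taken from the sample labels. The deposited values are MAS5 signal intensities per probe set on a linear scale, which the authors scaled to a trimmed mean of 500 on each array (here 500.0 to 500.1); the sources used here name no MAS5 version. The signals carry no scaling between fractions, and no pair of arrays was identical. The array number per group (3) limits the precision, and no counts underlie the values.

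Of 22810 probe sets, 64 controls were left out. The platform annotation names 13513 of the rest with 1 gene, 503 with several and 8730 with none; symbols are those of that annotation, and loci, chromosomes and gene lengths came from a RefSeq gene table. A signal of at least 50 on all 12 T arrays stands in for the detection calls of the methods, which were not used here. Log2 signals were compared with limma 3.58.1 (lmFit and eBayes, R 4.3.3), with 1 fit for the 12 T arrays and 1 for the 12 NS and PE arrays. A gene was called at a Benjamini-Hochberg adjusted p under 0.01 over all kept probe sets and a fold above 1.5; this replaces the SAM test of the methods. New shares, half-lives and rates used the formulas of the methods (Cn 0.1345 and Cp 0.8474 at 17°C, Cn 0.2189 and Cp 0.7692 at 27°C), and log2 rates and decay constants were compared with limma at 0.05.

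Replicate numbers pair NS with PE RNA, which came from the same culture: deviations from the group means correlated at 0.237 to 0.333 (17°C) and 0.149 to 0.216 (27°C), each array best with its own number. The script was tested on simulated data. Alternatives covered the filter, a pseudocount of 50, 3 other scalings, 1 fit to all arrays, an intensity trend, a block for replicate number, leaving out each culture and, chosen after seeing the data, leaving out 2 PE arrays. All genes of the families could be named, with values by array for the highest and lowest gene of each comparison, genes at the filter limit, and psbA, psaA, psbD, petB, ndhB and rbcL; array values of ndhA and psbB, and of psbT and petN in a plot, were added after they were seen. The genes, lists and operons were chosen with earlier results of these data known.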

Additional observations from a re-analysis of the deposited data

How the results depend on the processing

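The number of genes called depended on the processing as follows, with the median log2 difference beside it. At time 0 (27°C minus 17°C), 3 genes became 0 with no filter, 1 in a fit to all 24 arrays and 6, all higher, under the plastid scaling (median 0.46). Of all probe sets, 8.43%, 22.3% and 43.2% were called under these settings. At the end, 0 became 1 with a pseudocount of 50, the plastid scaling, all 24 arrays, an intensity trend or the replicate block. The share of all probe sets called there ran from 5.53 to 11.9%. Over the morning, the plastid scaling gave 1 call at 17°C (median 0.40) and 1 at 27°C, beside 14.1% and 13% of all probe sets. The median difference of changes under it was -0.37. In NS RNA, 1 became 0 with no filter, 2 with quantile or plastid scaling (median -0.06) and 3 with all 24 arrays, the trend or the block. Of all probe sets, 3.31% were called with no filter, 14.3% with quantile and 9.62% with plastid scaling, and 11.9 to 15.3% under the last 3. In PE RNA, 0 became 1 with the pseudocount, trend or block and 6 with the plastid scaling. Of all probe sets, 8.79 to 10.7% were called under the first 3 settings and 3.97% under the plastid scaling. For NS minus PE at 27°C, 22 became 11 with no filter, beside 28.8% of all probe sets. The median was -1.69 under array medians and -0.15 under the plastid scaling. At 17°C the plastid scaling gave -0.043, and it gave 2 genes called for the difference between temperatures. Pairing NS with PE by the replicate block left 14 calls at 17°C and gave 24 at 27°C, beside 59.3% and 57.7% of all probe sets. Among genes called with or without the plastid scaling, petB (0.17), petA (0.19) and ndhC (0.99) changed sign under it at 27°C. With mean time 0 levels, 5 transcription and 1 decay calls resulted, and the share over all probe sets is not given for that setting. The new share at 17°C was 7.07% with a line per culture, and a regression over all probe sets gave unusable values (-30.1% and -23.3%).

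Leaving out 1 culture at a time, calls and medians ranged over 0 to 7 and -0.40 to -0.19 (time 0), 0 to 4 and -0.33 to -0.03 (end), 0 to 3 and -0.16 to -0.09 (17°C morning), 0 to 1 and -0.14 to 0.10 (27°C morning), 0 to 0 and 0.08 to 0.19 (difference of changes), 0 to 4 and -0.61 to -0.27 (NS), 0 to 0 and 0.15 to 0.51 (PE), 10 to 14 and -0.91 to -0.61 (NS minus PE, 17°C), 12 to 27 and -1.89 to -1.05 (27°C), and 0 to 0 and -1.07 to -0.36 (difference). The shares of all probe sets called were then 16.4 to 21.2% (time 0), 6.59 to 9.1% (end), 5.4 to 13.1% (17°C morning) and 15.4 to 25.9% (27°C morning). They were 5.35 to 10.3% (NS), 3.78 to 6.68% (PE), 47.3 to 58.1% (NS minus PE, 17°C) and 46.4 to 55.7% (27°C). Genes with rates ranged over 5 to 9, transcription calls over 3 to 5, decay calls over 0 to 1, and the median new share over 7.47 to 9.71% and 7.89 to 11.4%. Between temperatures and times, cultures share only a number: deviations of equal numbers correlated at -0.203 to 0.161. Of results for single genes and families under the other alternatives, 3373 were counted as unchanged, among them uncalled genes whose sign turned. Of the rest, 48 lost and 66 gained a call, 3 reversed, and 40 counts of calls within a family moved by over 1.5 times. The signals' lower end limits dim genes, for which 1 array can set a group mean.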
